A study of Mus musculus with 3 samples.

Results

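The DDX and DHX genes encode RNA helicases of the DEAD-box and DEAH-box families, and 52 of the 21768 protein-coding genes of the mouse annotation carry such a name, 36 with Ddx and 16 with Dhx followed by a digit. They were followed here through the full-length transcripts of 3 PacBio long-read libraries, 1 for each state of mouse CD4+ T cells. An isoform was given to the gene with which it shared most splice sites on the same strand of GRCm38, and the Y chromosome was left out. The cells came from spleens and lymph nodes of male wild-type C57BL/6N mice aged 6 to 10 weeks, and naive CD4+ T cells were isolated by kit, with RNA of the unstimulated cells taken on the day of isolation. The activated cells had been labelled with the dye CellTrace Violet, which is diluted at each division, stimulated with plate-bound anti-CD3 and anti-CD28 antibodies for 48 h and sorted by dye peak into cells with no division, called undivided here, and cells with 2 divisions. Both activated states share the antibodies, the culture and the sort, undivided cells can include cells that responded little, and the mice behind each library are not given. With 1 library per state there was no replicate, so counts and shares are given with no test of a difference between states.

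DEAD-box and DEAH-box proteins use ATP to open RNA duplexes or to strip proteins from RNA, and they accompany an RNA from its transcription to its decay. DEAH-box members drive the rearrangements of the spliceosome, many DEAD-box members act in the nucleolus on precursor ribosomal RNA, and others serve mRNA export, translation and decay or sense viral RNA. T cell activation is known for a steep increase in ribosome production and protein synthesis, which draws on several of these roles.

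The libraries held 10527 isoforms for naive, 12602 for undivided and 11109 for 2-division cells, and 8759, 11462 and 10057 of these belonged to protein-coding genes. The data list exon positions and no read numbers, so a count of isoforms is a count of structures and says nothing of the abundance of each. The names of the deposited files place the naive library on another sequencing cell than both activated libraries, which share a cell, so naive against activated and the sequencing cell cannot be told apart. CD4 T cell identity genes were found for 13, 12 and 12 of 14 in the order naive, undivided and 2 divisions, with 69, 76 and 59 isoforms. Markers of other cells were more often found in the naive library: B cell genes 7, 1 and 1 of 14 with 11, 1 and 1 isoforms and no Cd79a, Cd22 or Pax5, myeloid genes 4, 2 and 2 of 14, CD8 T and NK cell genes 4, 2 and 2 of 10, and erythroid and platelet genes 2, 0 and 0 of 10. Their part in the results was not tested, and a gene found in fewer states may come from fewer cells or from less RNA per cell, which cannot be told apart in bulk samples. A gene not found in a library may still be expressed below what its depth could show.

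Introns kept in the transcripts of Ddx5, Ddx39, Ddx39b and Dhx15 were found in every library and carry much of what follows, so their splice sites come first. Ddx5, also called p68, is a cofactor of splicing, transcription and microRNA processing, Ddx39b (UAP56) and its paralog Ddx39 act in splicing and mRNA export, and Dhx15 releases the spliceosome from the excised intron. Each 5′ site below holds the last 8 bases of the exon and the first 12 of the intron, with the GT of the donor in capitals. Each 3′ site holds the last 20 bases of the intron and the first 8 of the exon, with the AG of the acceptor in capitals. All were read from GRCm38 in the direction of transcription.
Ddx39 intron 6 (chr8:83721853-83722229, plus strand), 5′ site: tgcaggatGTgagtagggtg
Ddx39b intron 6 (chr17:35249070-35251246, plus strand), 5′ site: tgcaagatGTaaataccctt
Dhx15 intron 10 (chr5:52157578-52160229, minus strand), 5′ site: gttgtcagGTaatagaggga
Ddx5 intron 11 (chr11:106782694-106783958, minus strand), 5′ site: agggctagGTtagtacaaac
Ddx5 intron 12 (chr11:106782257-106782468, minus strand), 5′ site: aggttcagGTaaggatcttc
Ddx39 intron 6, 3′ site: ctgcttccctccccacacAGcctatgga
Ddx39b intron 6, 3′ site: ccacccctcctccccctcAGcctatgga
Dhx15 intron 10, 3′ site: cccataccaaccttgtttAGtcccacag
Ddx5 intron 11, 3′ site: cacactgcaacaccttacAGatgtggaa
Ddx5 intron 12, 3′ site: tccacttactttcttgacAGgtcgttcc

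Most helicase genes were found in every state. The naive library held 35 of the 52 genes (67.3%), the undivided library 39 (75%) and the 2-division library 36 (69.2%), while 20.5%, 24.4% and 22.6% of all protein-coding genes had an isoform. The gene lists were not matched for expression level, so the gap between helicases and all genes is a description. In all 3 libraries 27 members were found, and 7 had no isoform placed by splice sites in any: the germ line genes Ddx4 (the Vasa homolog), Ddx25 and Ddx43, the interferon-induced Ddx60, Dhx36, which unwinds G-quadruplexes, Dhx57, and Ddx28, a gene of 1 exon that this placement cannot reach. An isoform overlapping Ddx28 on its strand was present in each library.

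A group of 6 members was found in both activated libraries and not in the naive one. They were Ddx20 (Gemin3, of the SMN complex that builds spliceosomal particles) with 3 and 1 isoforms in the undivided and 2-division libraries, Dhx16 (a spliceosomal helicase) with 2 and 2, the nucleolar Ddx49 with 2 and 2 and Ddx55 with 3 and 2, the mRNA export factor Ddx19b with 1 and 1, and Dhx9 (RNA helicase A) with 1 and 2. Over all protein-coding genes 993 of 21768 (4.56%) had this pattern. Of those genes 15248 had no isoform in any library, against 7 of the 52 members. The bases are thus unlike, and neither this share nor the one for the reverse pattern shows an excess among members. The reverse pattern was shown by 3 members with 1 naive isoform each, against 2.51% of all genes: Ddx23 (the spliceosomal helicase that releases the U1 particle from the donor site), Dhx37 (a helicase of the small ribosomal subunit precursor) and Ddx59. Other members were found in a pair of states with naive among them, Ddx17, Dhx8 and Dhx38 in naive and undivided cells and Ddx6 and Dhx29 in naive and 2-division cells. Dhx33, Dhx34 and the DNA helicase Ddx11 were found in undivided cells alone with 1 isoform each, and Ddx51 in 2-division cells alone with 2. Counts this low rest on single isoforms, and members with at least 2 isoforms numbered 18, 24 and 24.

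Read by role, the 16 splicing helicases had 44 isoforms in naive, 56 in undivided and 40 in 2-division cells, from 14, 15 and 12 genes. The 16 ribosome biogenesis helicases had 23, 37 and 38 isoforms from 12, 14 and 14 genes. Library totals were also lowest in naive and highest in undivided cells. As a share of the isoforms of protein-coding genes, the splicing group made up 0.502%, 0.489% and 0.398%, or 0.285%, 0.366% and 0.328% without Ddx5, so its order of states rests on that gene. The ribosome biogenesis group made up 0.263%, 0.323% and 0.378%. Counts by role include isoforms that lack the reference start codon or do not reach the reference stop codon. No share by role is given for isoforms with the whole reference frame, so this rise is not shown for them. Of the 8 helicases of translation, export and decay, 4, 5 and 6 were found with 5, 7 and 7 isoforms. The sensors of viral RNA Ddx58 (RIG-I) and Dhx58 (LGP2) made up the innate group, 2 of 3 genes in each library with 4, 3 and 3 isoforms, and Dhx30, a factor of the mitochondrial ribosome, gave 3, 2 and 4. The remaining genes gave 3 isoforms in naive cells (Dhx32 with 2 and Ddx59 with 1), 3 in undivided cells (Dhx32 with 2 and Ddx11 with 1) and 2 after 2 divisions (Dhx32). Summed over all members there were 82, 108 and 94 isoforms, which is 0.936%, 0.942% and 0.935% of the isoforms of protein-coding genes, nearly the same share in each state.

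**Figure D1:**
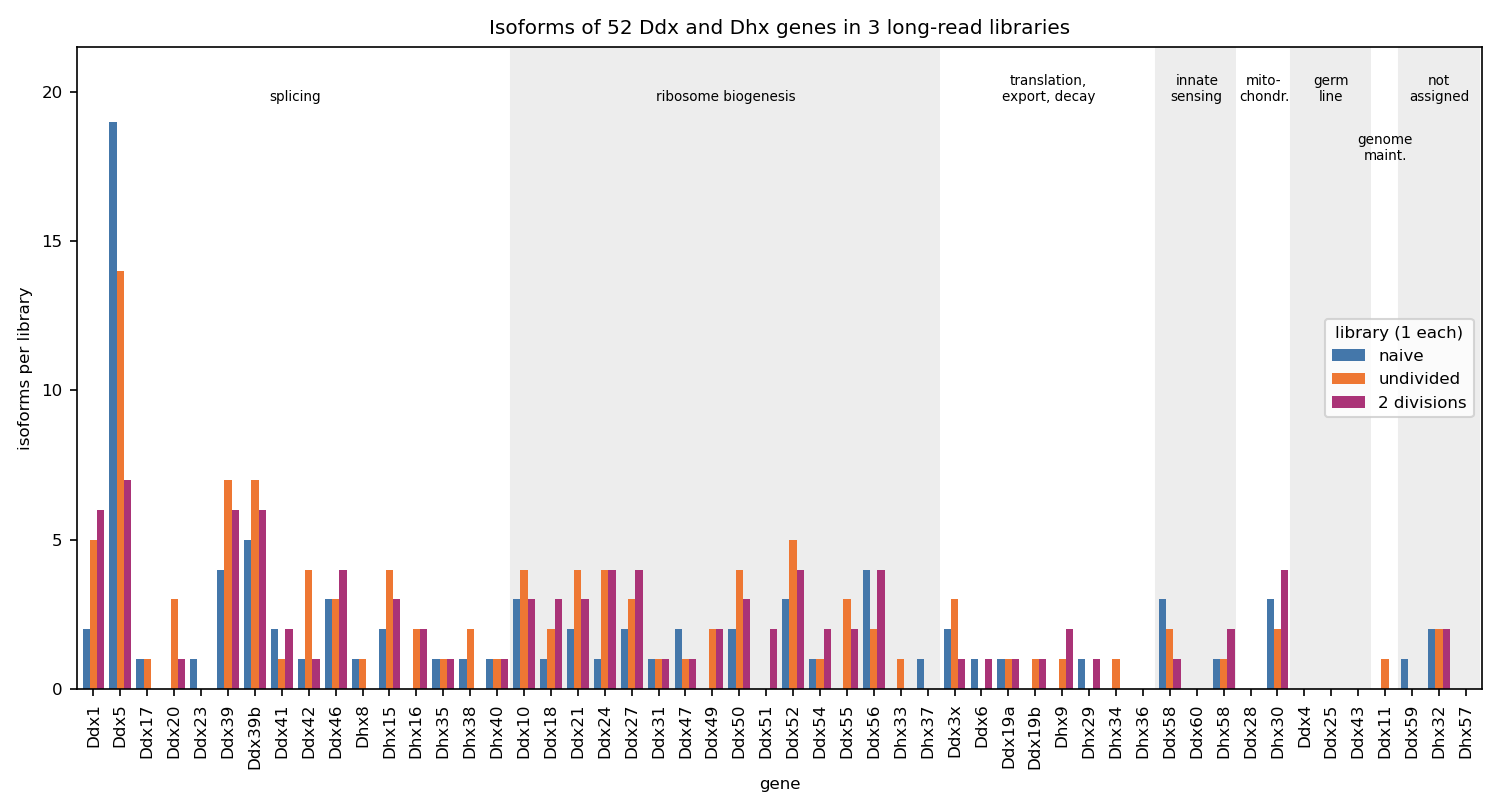
Isoforms found for each of the 52 Ddx and Dhx genes (y axis, number of isoforms) in the naive, undivided and 2-division libraries, 1 library each, with genes grouped by role along the x axis. Ddx5 stands highest in the naive library with 19 isoforms, while most genes have 5 or fewer in every library.

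Among the splicing helicases, Ddx5 was the member with most isoforms, 19 in naive, 14 in undivided and 7 in 2-division cells, an order that the library totals do not share. Ddx39 followed with 4, 7 and 6 isoforms and Ddx39b with 5, 7 and 6. Ddx1, of the complex that ligates tRNA exons, had 2, 5 and 6 isoforms and Ddx46, which acts on the U2 particle early in spliceosome assembly, had 3, 3 and 4. Ddx42, linked to the same particle, had 1, 4 and 1. Among the nucleolar helicases, Ddx52 had 3, 5 and 4, Ddx10 had 3, 4 and 3 and Ddx56 had 4, 2 and 4, the last with fewest in undivided cells. Ddx21, which coordinates ribosomal RNA transcription and processing, had 2, 4 and 3. Ddx3x, a helicase of translation initiation, had 2, 3 and 1 isoforms, and Ddx19a had 1 in each.

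A gene was counted as having more isoforms in a library when it had at least 3 there and at least 2 times as many as in the other. Of the 19 members with at least 3 isoforms in the naive or the undivided library, 8 had more in undivided cells (42.1%, with 41.5% over all genes): Ddx1, Ddx20, Ddx21, Ddx24, Ddx42, Ddx50, Ddx55 and Dhx15. The members' share was thus near that of all genes, in a library with a larger total. Ddx56 alone had more in naive cells, 5.26% of members against 17.7% of all genes. After 2 divisions 4 of 16 members had more isoforms than in naive cells (25%, with 35.6% over all genes), Ddx1 and the nucleolar Ddx18, Ddx24 and Ddx27. Ddx5 and Ddx58 had more in naive cells, 12.5% of members against 23.0% of all genes. From undivided to 2-division cells, Ddx56 and Dhx30 had more (2 of 19, 10.5%, with 12.3% over all genes), and Ddx20, Ddx3x, Ddx42 and Ddx5 had fewer (21.1%, with 21.0% over all genes). Members named outside the rule for named genes, such as Dhx15, Ddx18, Ddx24, Ddx27 and Ddx50, were chosen after their values were seen.

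Part of this count came from isoforms that lack the reference start codon. Many of these began inside the gene, while others, such as some of Ddx39b, began in exon 1 of the reference transcript. The reference start codon was held by 75 of 82 member isoforms in naive cells (91.5%, 95% interval 83.2% to 96.5%), by 85 of 108 in undivided cells (78.7%, 69.8% to 86%) and by 76 of 94 after 2 divisions (80.9%, 71.4% to 88.2%). Over all protein-coding genes these shares were 90.1%, 85.9% and 85.2%. A start in exon 1 of the reference transcript was found for 70.7%, 64.8% and 59.6% of member isoforms, against 68.3%, 66.9% and 66.3% over all genes. Intervals here and in what follows are exact Clopper-Pearson intervals and cover counting error only, since isoforms of a gene are not independent. Among isoforms with the start codon, 3 members had more in undivided than in naive cells (Ddx39b, Ddx42 and Ddx55) and 1 had fewer (Ddx56). After 2 divisions Ddx1 alone had more than in naive cells and Ddx5 and Ddx58 had fewer. Of the members above, only Ddx42, Ddx55, Ddx56, Ddx1 after 2 divisions, Ddx5 and Ddx58 met the count in both ways against naive cells. No share over all protein-coding genes is given for this narrower count, so the smaller number of members cannot be read as particular to helicases. Why isoforms lacked the start codon was not tested.

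Other RNA helicases and the partners of the family were counted in the same way. Of 20 RNA helicases with other names, 11, 11 and 13 were found with 27, 45 and 37 isoforms, and 4 had more isoforms in undivided than in naive cells and 1 had fewer. After 2 divisions 1 had more and 1 had fewer. Of 24 partner proteins such as exon junction, export and SMN complex subunits, 13, 16 and 13 were found with 21, 33 and 21 isoforms. Of these genes 3 had more and 1 fewer in undivided cells, and none had more or fewer after 2 divisions. Eif4a3, with 1, 3 and 2 isoforms, is in both lists. Only genes with at least 3 isoforms in a library can meet this rule, so 20 and 24 are not its base. No share of such genes is given, and the counts describe the lists alone.

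The whole chain of introns was annotated for 46 of 82 naive isoforms (56.1%, 44.7% to 67%), 54 of 108 undivided isoforms (50%, 40.2% to 59.8%) and 47 of 94 isoforms after 2 divisions (50%, 39.5% to 60.5%), against 61.4%, 62.5% and 63.9% over all protein-coding genes. A further 17.1%, 30.6% and 26.6% held a part of an annotated chain, against 12.9%, 16.2% and 17.2%. Whole and partial chains together came to 73.2%, 80.6% and 76.6% of member isoforms and to 74.4%, 78.7% and 81.1% over all genes, so the gap seen for whole chains was smaller and, in undivided cells, turned. An intron absent from the annotation was held by 3.66%, 6.48% and 7.45% of member isoforms, against 10.8%, 9.96% and 8.23% over all genes. Annotated introns in a new combination made up 23.2%, 13% and 16%, against 14.8%, 11.4% and 10.6%.

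Chains recurred between states. Of the 71 distinct member chains of naive cells, 47 were also found in undivided cells (66.2%) and 45 in 2-division cells (63.4%). Of the 93 chains of undivided cells, 47 were found in naive (50.5%) and 54 in 2-division cells (58.1%), and of the 83 chains of 2-division cells, 45 were found in naive (54.2%) and 54 in undivided cells (65.1%). Over all protein-coding genes the same 6 shares were 56.6%, 52.5%, 45.4%, 56.2%, 47.2% and 63.1%.

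**Figure D2:**
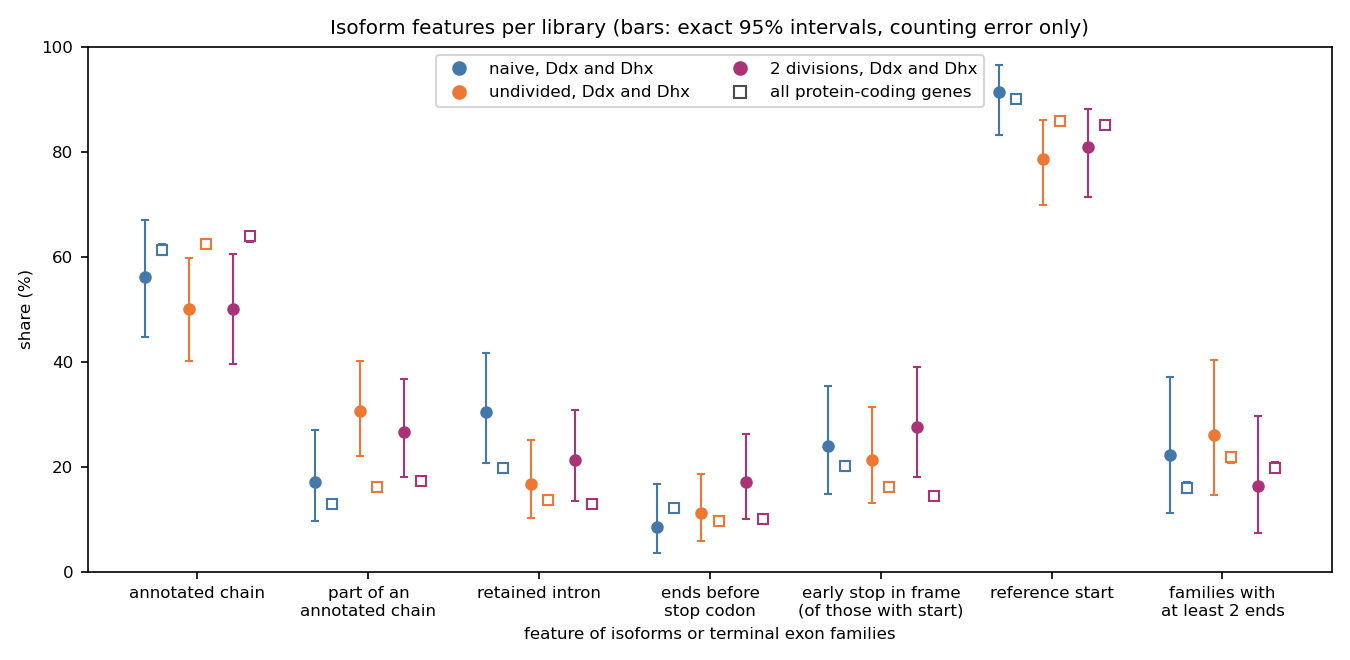
Shares (y axis, %) of member isoforms (filled circles) and of isoforms of all protein-coding genes (open squares) with each feature named on the x axis, per library, with exact 95% intervals. The retained intron share of members was 30.5% in naive, 16.7% in undivided and 21.3% in 2-division cells.

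Retained introns were found in every library, and 17 of the 22 reference introns concerned lay in splicing helicases, 7 of them in Ddx5. An intron was called retained when an exon held the whole of an intron of a protein-coding transcript of the gene with at least 10 nt on each side. This was so for 25 of 82 isoforms in naive cells (30.5%, 20.8% to 41.6%), 18 of 108 in undivided cells (16.7%, 10.2% to 25.1%) and 20 of 94 after 2 divisions (21.3%, 13.5% to 30.9%). Over all protein-coding genes the shares were 19.7%, 13.6% and 12.9%, so the naive library was highest in both sets. The member intervals of the 3 libraries overlap. Ddx5 gave 9, 5 and 2 of these isoforms, and without it the member shares were 25.4%, 13.8% and 20.7%, the undivided one near that of all genes. Without Ddx46, whose isoforms all keep a short annotated intron, they were 27.8%, 14.3% and 17.8%.

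There were 25 distinct retained introns in 14 members, 14 of them in 1 library, 3 in 2 and 8 in 3, and 22 were introns of the member's reference transcript. These 22, in 13 members, spanned 74 to 2652 nt with a median of 312 nt, where the 719 reference introns of the members found had a median of 800 nt. Splicing helicases held 17 of the 22, out of 268 reference introns, and ribosome biogenesis helicases 3 out of 237. Ddx5 alone held 7 of these 17. The splicing group also had more isoforms, 44, 56 and 40 against 23, 37 and 38, in which a retained intron could be found. No share of introns over all protein-coding genes is given, so the difference between roles is a description. Dhx9 intron 17 and Dhx58 intron 5 were the remaining ones, each found retained after 2 divisions in 1 isoform. All 5 reference introns retained in every library were those of the splice sites printed above.

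**Figure D3:**
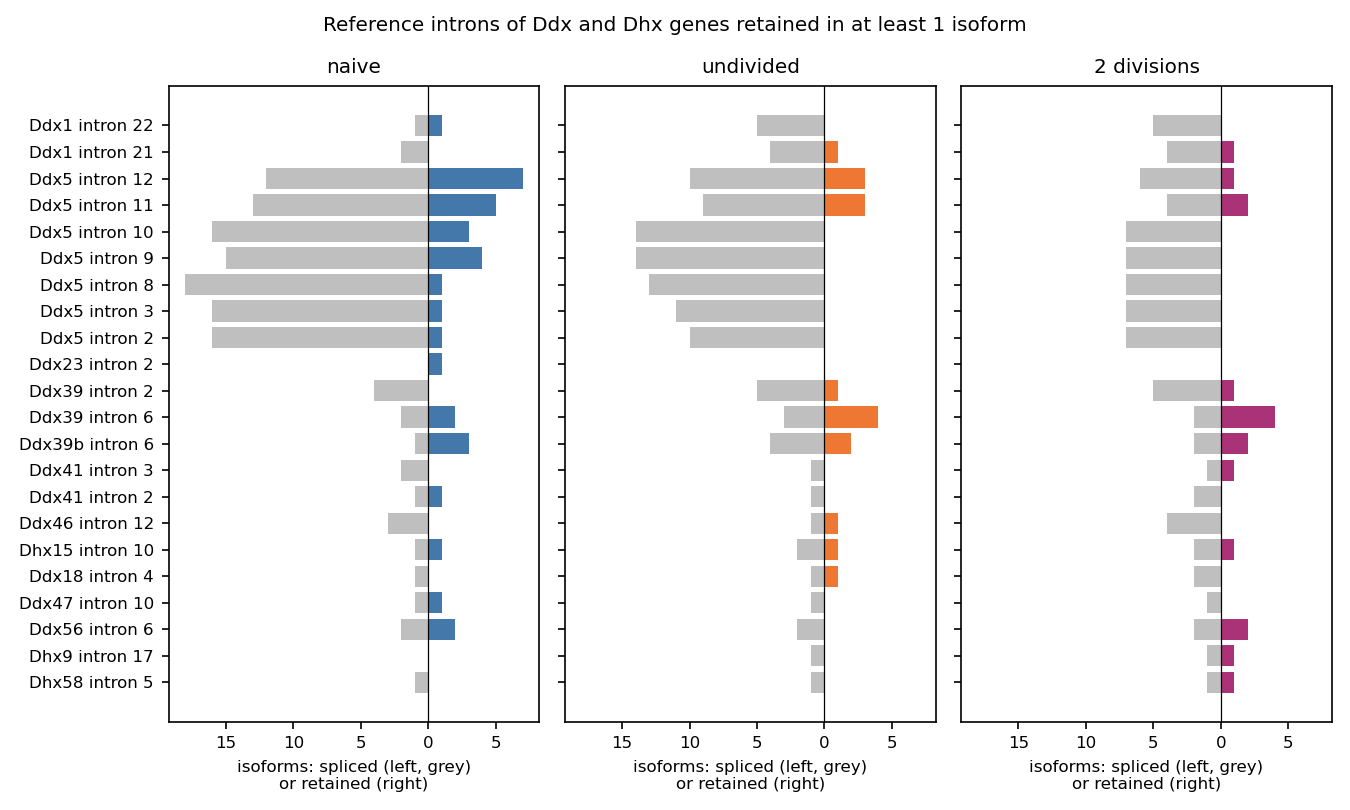
For each reference intron that at least 1 member isoform retained (y axis), the number of isoforms that retained it (coloured, to the right) or spliced it (grey, to the left) in each library (x axis, isoforms). Ddx5 introns 11 and 12, Ddx39 and Ddx39b introns 6 and Dhx15 intron 10 have coloured bars in all 3 libraries, and 5 Ddx5 introns have them in the naive library only.

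Ddx39 and Ddx39b kept the same intron. Intron 6 of Ddx39, 377 nt long, was retained by 2, 4 and 4 isoforms and spliced by 2, 3 and 2 in the order naive, undivided and 2 divisions. Intron 6 of Ddx39b, 2177 nt long, was retained by 3, 2 and 2 isoforms and spliced by 1, 4 and 2. The retained form was thus as common among isoforms as the spliced form or more so in each library for Ddx39, and in the naive and 2-division libraries for Ddx39b. Both genes have 10 coding exons, 9 of them of equal length, and over these 876 of 1073 nt are identical (81.6%). The intron follows coding exon 5 in both, after 732 coding nt in Ddx39 and 735 in Ddx39b, and the acceptor sites printed above share the exon letters after the AG while the introns differ in length.

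In the isoforms of Ddx39 the reference frame of 427 codons was found in 1 isoform of each library, and 3, 5 and 5 isoforms had a stop more than 50 nt before the last junction. Such a stop is known to mark transcripts for nonsense-mediated decay in general, and decay was not measured here. An extra exon of 59 nt inside intron 5 (chr8:83721466-83721524) was another source of early stops in Ddx39, held by 2, 3 and 2 isoforms, and this exon is annotated. Ddx39b had the reference frame in 1, 2 and 1 isoforms and an early stop in 1, 2 and 1. In 3, 3 and 4 of its isoforms the reference start was missing, and 1, 2 and 2 of them used an acceptor of intron 1 that lies 134 nt downstream.

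Dhx15 intron 10, the longest at 2652 nt, was retained by 1 isoform in each library and spliced by 1, 2 and 2. Ddx46 held an annotated intron of 40 nt before its coding region that every isoform retained, 3, 3 and 4, and none spliced, and Dhx30 kept a pair of overlapping annotated introns that share a donor in 1 isoform of each library. Ddx56 intron 6, of 716 nt, was retained by 2 isoforms in naive and 2 in 2-division cells and by none of the 2 undivided isoforms. Ddx1 kept intron 22 in naive cells and the neighbouring intron 21 in both activated libraries, 1 isoform each. Single retaining isoforms in 1 library were also found for introns of Ddx41, Ddx47, Ddx23, Ddx46 and Ddx18, and Ddx39 intron 2 was retained by 1 isoform in each activated library.

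A reference intron was retained by 21, 15 and 15 isoforms, and 19, 13 and 14 of these held the reference start, so that their frame could be read. None of those with the start reached the reference stop. An early stop was found in 13, 10 and 13 of them and another stop in 6, 3 and 1. Among all member isoforms with the start codon, the reference stop was reached by 46 of 75 in naive (61.3%), 53 of 85 in undivided (62.4%) and 42 of 76 in 2-division cells (55.3%), against 65%, 71.3% and 72.7% over all genes. An early stop was found in 24% (14.9% to 35.3%), 21.2% (13.1% to 31.4%) and 27.6% (18% to 39.1%), against 20.1%, 16.2% and 14.4%. The member intervals overlap between states, and the interval of 2-division cells alone lies wholly above the value for all genes. Ddx39 by itself gave 5 of the 21 early-stop isoforms of 2-division cells, and no interval without it is given.

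Nearly every helicase found had an isoform whose frame ran from the reference start codon to the reference stop codon. This was so for 34 of 35 members in naive cells (not Ddx23), 38 of 39 in undivided cells (not Dhx30) and 33 of 36 after 2 divisions (not Ddx31, Ddx51 and Ddx55). The frame between these codons could differ in length from the reference. The only naive Ddx17 isoform had 650 codons against 652, and the only undivided Ddx11 isoform had 906 against 880. Early stops came from 11, 9 and 13 members, and 6 members had them in every library: Ddx1, Ddx5, Ddx39, Ddx39b, Ddx50 and Dhx15. No share over all protein-coding genes is given for these counts of members, so they cannot be read as particular to helicases. A member with more isoforms also has more in which an early stop could be found. In Ddx50, a nucleolar paralog of Ddx21, an annotated extra exon of 110 nt in intron 1 (chr10:62647534-62647643) was held by 1, 1 and 2 isoforms and gave a stop after 51 of 734 codons.

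Beyond retention, 36 splice differences from the reference were counted in members, namely 6 extra exons, 2 skipped exons, 10 other acceptors, 12 other donors and 6 introns with both sites different. The extra exons of Ddx39 and Ddx50 were the 2 found in all 3 libraries. Ddx42 without exon 5 (37 nt) and Ddx46 with an extra exon of 117 nt were found in undivided cells only, and Dhx9 with an extra exon of 139 nt in 2-division cells only, each in 1 isoform.

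Ddx5 (chr11:106780355-106789185, minus strand, with 13 exons and 615 codons in its reference transcript) showed the widest set of structures. Its isoforms formed 14, 12 and 6 distinct chains, 19 over all libraries, of which 5 were found in every library, 6 in naive cells only, 5 in undivided cells only and 0 in 2-division cells only. Introns 11 (1265 nt) and 12 (212 nt) were the ones kept throughout. Intron 11 was retained by 5, 3 and 2 isoforms and spliced by 13, 9 and 4, and intron 12 was retained by 7, 3 and 1 and spliced by 12, 10 and 6. In the naive library only, introns 2, 3, 8, 9 and 10 were also retained, by 1, 1, 1, 4 and 3 isoforms, each of them being spliced by 10 to 14 isoforms in undivided cells and by 7 after 2 divisions.

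Isoforms of Ddx5 with at least 2 retained introns numbered 6, 1 and 1, and the most held by a single isoform was 6, 2 and 2. From the reference start, 6, 5 and 3 isoforms of Ddx5 reached the reference stop, 5, 2 and 2 met an early stop and 5, 3 and 1 another stop. A donor of intron 11 that lies 528 nt downstream (intron at chr11:106782694-106783430) was used by 1 isoform in each library and gave an early stop. Exon 12 (225 nt) was skipped in 1 undivided isoform, which reached the reference stop with a frame of 540 codons where the reference has 615. Annotated first exons upstream of the reference start of transcription were joined through an intron at chr11:106788460-106789015 by 2, 1 and 1 isoforms and through another at chr11:106788460-106788698 by 2, 1 and 0.

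A microRNA lies at the end of Ddx5 intron 11. The hairpin of Mir3064 (chr11:106782693-106782759, minus strand) straddles the 3′ splice site printed above, so its mature sequences fall in the stretch that 5, 3 and 2 isoforms retain. Their sequences are those of RefSeq on GRCm38.p6, with the seed, bases 2 to 8, in capitals.
mmu-miR-3064-5p (chr11:106782736-106782757): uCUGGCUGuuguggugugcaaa
mmu-miR-3064-3p (chr11:106782695-106782716): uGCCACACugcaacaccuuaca
The seeds of both arms differ, and the levels of the mature microRNAs were not measured. Over all members, 7 small RNA genes lie in introns of 3 members, 5 microRNA and 2 snoRNA genes, and the 2 in a retained intron, Mir3064 and Gm25994, are both in Ddx5 intron 11.

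Ddx5 also ended at a pair of sites in its last exon. The distal end, 1494 nt past the stop codon, was used by 8 of 19 isoforms in naive cells (42.1%, 20.3% to 66.5%), 2 of 14 in undivided cells (14.3%, 1.78% to 42.8%) and 1 of 7 after 2 divisions (14.3%, 0.361% to 57.9%). The proximal end, 301 nt past the stop, was used by 11, 12 and 6. The naive share was highest, and the 3 intervals overlap. Both ends have the poly(A) signal AATAAA 16 nt upstream. Retained introns were found on both kinds of transcript, in 4, 1 and 0 distal and 5, 4 and 2 proximal isoforms.

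**Figure D4:**
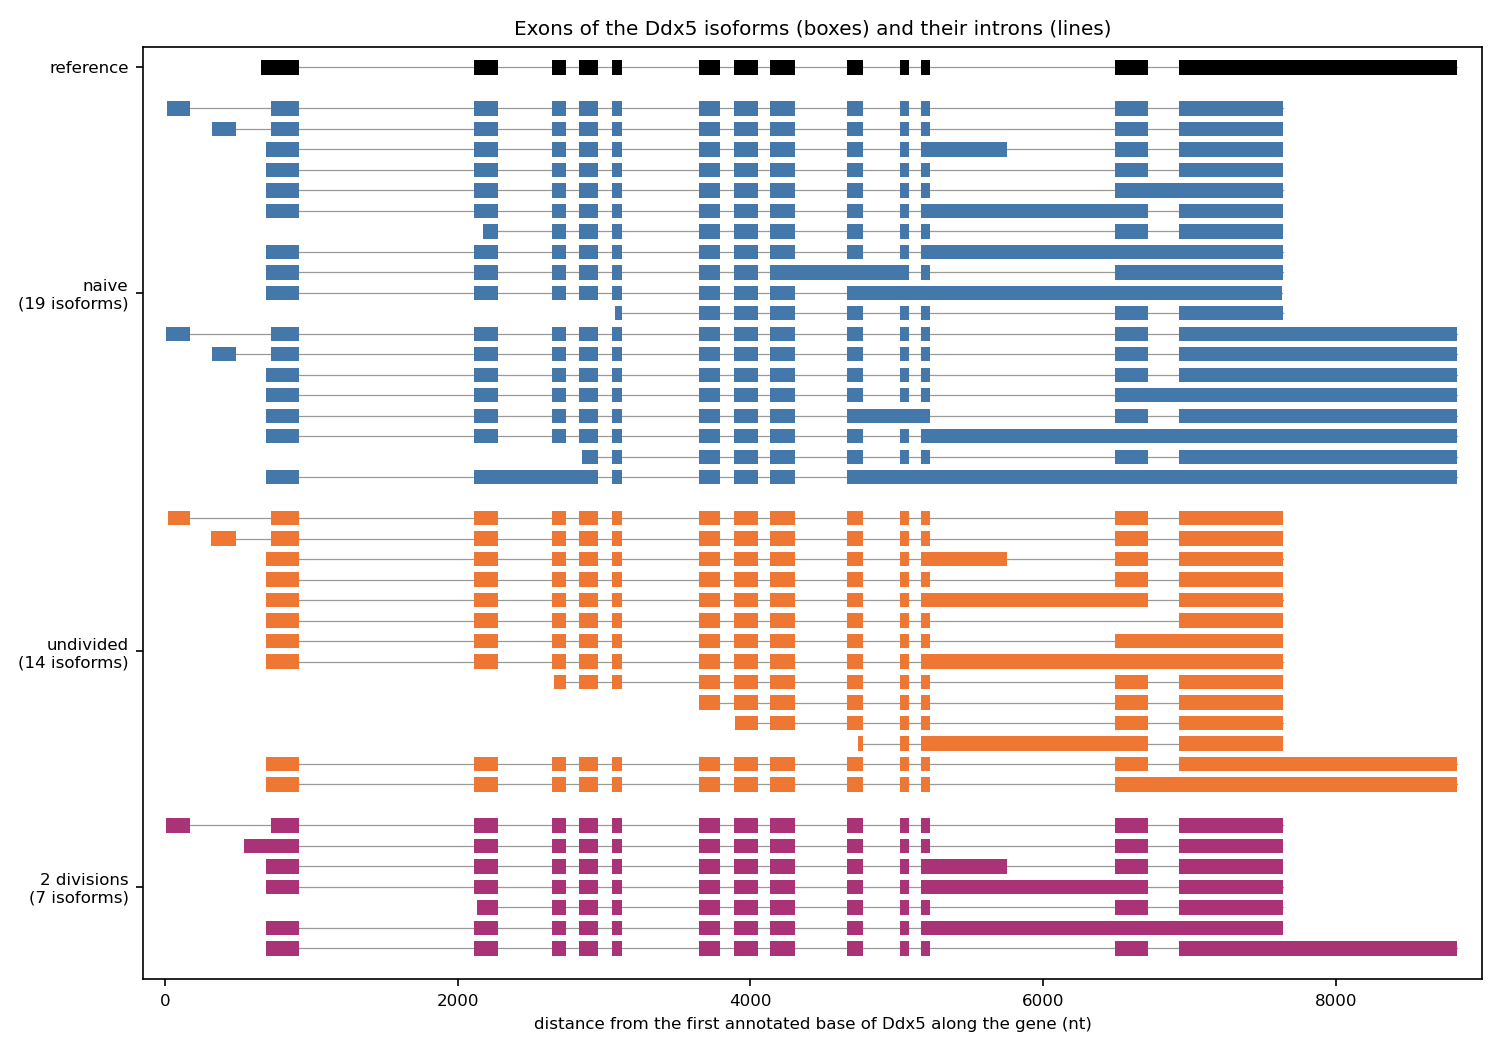
Exons (boxes) and introns (lines) of the Ddx5 reference transcript and of the 19, 14 and 7 isoforms found in naive, undivided and 2-division cells (y axis, 1 line per isoform), drawn along the gene from 5′ to 3′ (x axis, nt). Long boxes that bridge several reference exons are retained introns, and the last exon reaches the distal end in 8, 2 and 1 isoforms.

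A terminal exon family groups the isoforms that share the acceptor of the last exon. Tandem ends were found in about the share of families that all protein-coding genes show. Of these families in members, 10 of 45 had at least 2 ends in naive cells (22.2%, 11.2% to 37.1%), 13 of 50 in undivided cells (26%, 14.6% to 40.3%) and 8 of 49 after 2 divisions (16.3%, 7.32% to 29.7%). Over all genes the shares were 16%, 21.8% and 19.8%, all within the members' intervals. Ends within 24 nt of the next were merged. Ends followed on the genome by 12 or more A within 20 nt are called A-rich, since such a stretch can be primed in place of a poly(A) tail, and whether this happened here was not tested.

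Some helicases used the same ends in every state. Ddx21 ended 236 nt past the stop in 1, 1 and 1 isoforms and 2101 nt past it in 1, 3 and 2, and Ddx56 ended at 200 nt in 2, 1 and 2 and at 256 nt in 2, 1 and 2. Ddx49 used ends at 56 and 640 nt with 1 isoform each in both activated libraries. In others a distant end was found only in some libraries. Ddx46 had an end at 2425 nt in 1 naive isoform, one at 282 nt in 1, 3 and 1 isoforms and one at 66 nt in 1 isoform after 2 divisions. Ddx3x had its end at 2490 nt in 1, 1 and 0 isoforms, and its nearer ends at 1122 nt (1, 1 and 1) and 470 nt (0, 1 and 0) were all A-rich. Ddx52 ended at 377 nt in 1, 2 and 1 isoforms and at 1267 nt in 1, 0 and 1. Ddx42 ended at 973 nt in 1, 1 and 0 isoforms and near 769 nt in 0, 3 and 1, of which 1 undivided isoform was A-rich.

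**Figure D5:**
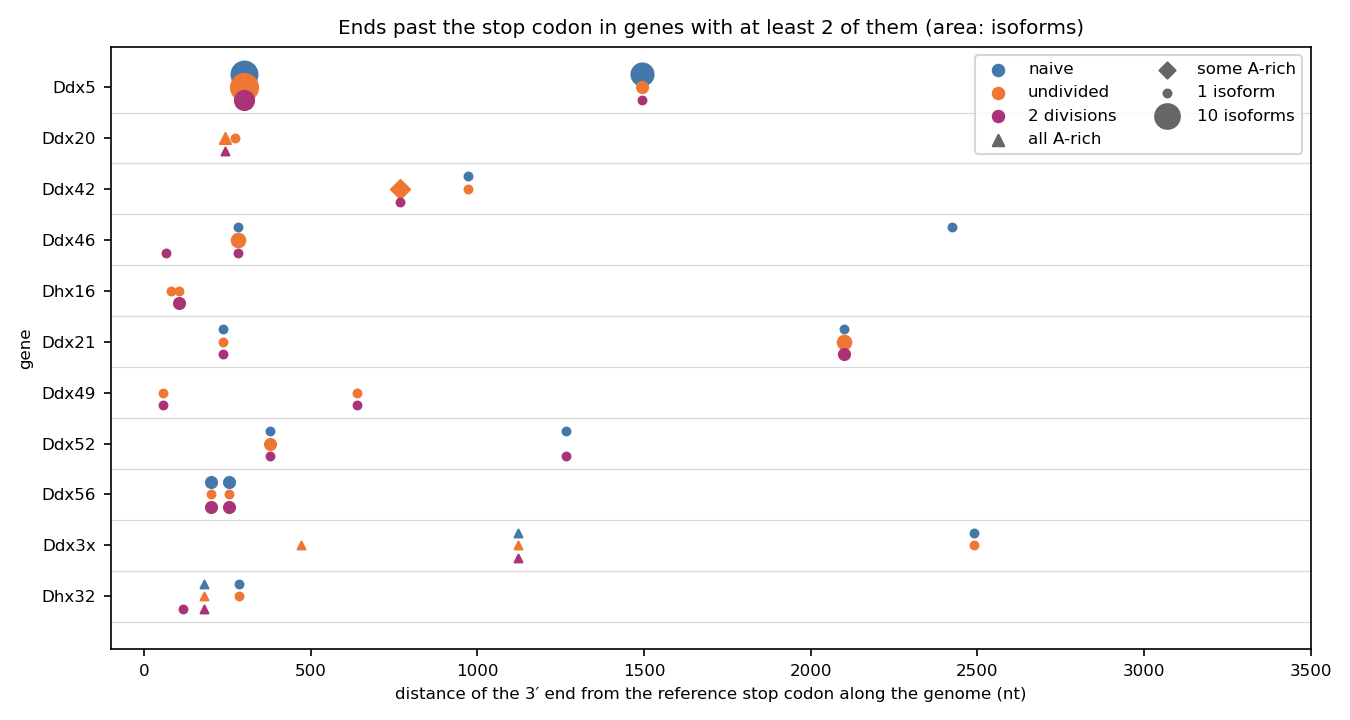
Distance of each 3′ end from the reference stop codon along the genome (x axis, nt) for the 11 members with at least 2 ends past it (y axis), with symbol area for the number of isoforms, colour for the library, triangles where all isoforms at an end were A-rich and a diamond where some were. Ddx5 has its symbols at 301 and 1494 nt in every library, and Ddx46 has a symbol at 2425 nt in the naive library only.

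Where the mean terminal exon of a family differed by more than 100 nt from that of naive cells, it was mostly shorter, as it was over all genes. Of 37 member families found in both the naive and the undivided library, 6 were shorter in undivided cells (16.2%, with 13.0% over all genes) and 2 were longer (5.41%, with 5.67% over all genes). Of 35 families found in naive and 2-division cells, 6 were shorter after 2 divisions (17.1%, with 13.5% over all genes) and 1 was longer (2.86%, with 4.79% over all genes). The members' shares were thus near those of all genes. From undivided to 2-division cells 3 of 40 were shorter (7.5%, with 8.41% over all genes) and 1 was longer (2.5%, with 6.95% over all genes).

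With all ends counted, the same 6 families were shorter in both activated libraries. They were the last exon of Ddx5, with a mean of 1210 nt in naive, 817 nt in undivided and 907 nt in 2-division cells, a Ddx5 family that reads through introns 11 and 12, and the last exons of Ddx46 (1400, 330 and 222 nt), Ddx52 (880, 307 and 601 nt), Ddx3x (1886, 1440 and 1202 nt) and Ddx42 (1648, 1490 and 1444 nt). Because both comparisons share the naive library, a naive value moves both. Without A-rich ends 4 of the 6 families were shorter in both, and Ddx52 and Ddx3x were not. Of these 4, Ddx42 rested on 1, 3 and 1 isoforms, and its nearer ends that were kept had no poly(A) signal. They belong to the same merged end as the A-rich one that was dropped, so for Ddx42 the filter separates little. Ddx52 then had means of 880, 440 and 880 nt, since its 2-division mean had been lowered by an A-rich end 43 nt into the last exon, before the stop codon. Ddx3x then had 2570 nt in naive and 2576 nt in undivided cells and no isoform after 2 divisions. Dhx32 was added as shorter after 2 divisions, at 453, 462 and 287 nt, so the count of 5 shorter families in either comparison does not stand for the same genes. The families with a longer last exon were Ddx21, at 1427, 1890 and 1737 nt, and in undivided cells another intron-retaining Ddx5 family, by 198 nt. Ddx21 had the same pair of ends in every library, so its mean moved with the number of isoforms at each, some of which lack the 5′ part of the gene. From undivided to 2-division cells Ddx46, Ddx21 and Ddx3x were shorter and Ddx52 was longer, and without A-rich ends Dhx32 took the place of Ddx3x.

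A further set of isoforms ended before the stop codon of the reference transcript, 7 of 82 in naive (8.54%, 3.5% to 16.8%), 12 of 108 in undivided (11.1%, 5.87% to 18.6%) and 16 of 94 in 2-division cells (17%, 10.1% to 26.2%). Over all genes the shares were 12.1%, 9.68% and 9.97%, and the interval of 2-division cells lies just above its value for all genes. Of these early ends 5 of 7, 9 of 12 and 11 of 16 were A-rich, where 4%, 7.29% and 5.13% of the other member ends were, and over all genes 84.3%, 72.3% and 73.2% of early ends were A-rich. A poly(A) signal within 50 nt upstream was present at 1 of 7, 0 of 12 and 0 of 16 early ends, and these zeros allow shares of up to 26.5% and 20.6%, against 80%, 72.9% and 69.2% of the other ends. Without A-rich ends the early shares of members were 2.7%, 3.26% and 6.33%. No matching share over all genes is given, so the higher value of 2-division cells is not shown to remain without A-rich ends.

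The early ends lay at 20 sites in 12 members, 16 in exons and 4 in introns, and 4 sites were found in all 3 libraries. Sites in Ddx10, Ddx52 and Ddx27, nucleolar helicases of the large or small subunit, are printed as examples of those found in 2 or 3 libraries. Other sites in Ddx46, Ddx52, Ddx55, Ddx58 and Dhx30 recurred as well and are not printed here. Each line holds the last 10 bases of the transcript in lower case and the 20 nt that follow on the genome in capitals, from GRCm38 in the direction of transcription.
Ddx10 exon 15 (chr9:53157210-53157212, minus strand): caaatttgacAAAGAAGAATACAGGAAGAA
Ddx10 exon 14 (chr9:53159962-53159968, minus strand): ttgcagaagcAAAAAAAGTAATGAAAAGAA
Ddx52 exon 13 (chr11:83957537, plus strand): aactactaagGTATGCATCTAAACTTACTC
Ddx27 exon 16 (chr2:167031628, plus strand): gttccagaccAAAGAAGAGAGGAAGAAGGA
Ddx27 exon 17 (chr2:167033602, plus strand): ccttaagaggAAAGAAGAAAAGGAAGAAGT
The Ddx10 sites were each found in 1 isoform of every library and have 13 and 15 A in the 20 nt, in coding exons. The Ddx27 sites were found in 0, 1 and 2 and in 0, 1 and 1 isoforms, with 12 and 13 A.

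The Ddx52 site looked different on the genome and on the spliced transcript. It lies on the last base of exon 13, found in 1 isoform of each library, and the genome after it is the intron, with 6 A in 20 nt. In the spliced transcript the next exon follows, with 15 A, printed in capitals after the same bases.
Ddx52 exon 13 joined to exon 14: aactactaagCAAACAAAAGAAAAAAATGA
Ends in Ddx46 exon 17 (1, 0 and 1 isoforms) and Dhx9 exon 19 (0, 0 and 1) had 7 and 8 A on the genome and 12 each on the spliced transcript. Counted on either sequence, 16 of the 20 sites were A-rich, where 13 were on the genome alone. The fourth site found in every library lies in intron 2 of Dhx30 (chr9:110114176), in 1 isoform each, with 19 A after it.

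The rest of the early ends were in fewer libraries. Ddx58 ended in exon 16 in 1, 1 and 0 isoforms, Ddx55 had ends in exon 13 in both activated libraries, and Ddx23, whose single naive isoform carries no reference stop, ended in intron 3 with AATAAA upstream and 16 A downstream. Ddx1, Ddx24 and Ddx54 had an early end in 2-division cells only, 1 isoform each.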

How the data were processed

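Naive, undivided and 2-division CD4+ T cells gave 1 PacBio library each. The study's methods state that the authors built consensus sequences (ccs), trimmed primers (lima), required a poly(A) tail and clustered reads with isoseq3, mapped with pbmm2, collapsed with isoseq3 and annotated with SQANTI3. Subread, minimap2 and the build names GRCm38 and mm10 stand in the submitters' processing notes. The deposited values are other than a measured unit: exon positions of each isoform, with no count of reads, so sequencing depth is unknown and the number of isoforms stands in for it.

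Exon positions were set against GRCm38 and GENCODE M21, in which Ddx39a is named Ddx39, with Python 3.11.15, pysam 0.24.0, scipy 1.17.1, numpy 2.4.6 and matplotlib 3.10.9. The reference transcript of a gene was its protein-coding APPRIS principal transcript, then the longest coding sequence. The scripts were tested on simulated data. The members, roles and lists were chosen with earlier results of these data known. Marker genes were counted where the annotation calls them protein-coding. The text names members with at least 5 isoforms in a library, those found in both activated libraries and not in naive cells or the reverse, those with a terminal exon difference of over 100 nt from naive cells, Ddx5, and the 3 with most isoforms in each role. Alternatives were isoforms assigned by exonic overlap, at least 2 isoforms per gene, counts scaled to library totals, other rules for chains, introns, ends and merge distance (50 nt), and Ddx5 or Ddx46 left out.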

Additional observations from a re-analysis of the deposited data

Results flagged for a closer look

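Isoforms that lie on a member's strand and overlap its exons without sharing a splice site were left out of the counts above. There were 3 in naive, 4 in undivided and 5 in 2-division cells, where member isoforms counted with them numbered 85, 112 and 99. The undivided and 2-division values are drawn attention to because they are a signal outside the main measurement and above the naive number. These numbers are not scaled to the size of the libraries. In each library 1 of them lies at Ddx28, which placement by splice sites cannot reach. In undivided cells they were 1 each at Ddx17, Ddx21, Ddx5 and Ddx28, and in 2-division cells 2 at Ddx21 and 1 each at Ddx24, Ddx3x and Ddx28. The naive ones were at Ddx24, Ddx5 and Ddx28.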

How the results depend on the processing

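No paired analysis was possible because each state had 1 library, and for the same reason no library could be left out. Over 33 counts and shares and 84 alternative values, 65 moved by less than their interval or stayed within 1.5 times, and 19 moved further. Counts and shares of this kind have no sign, so a change of direction could not be seen. With at least 2 isoforms required, 18 members were found in naive and 24 in undivided cells. Members with more isoforms in undivided than in naive cells numbered 4 with isoforms scaled to the library totals and 3 with only isoforms that hold the start codon. Under the latter 1 remained for 2 divisions over naive. These counts are given without a share over all genes, so they describe the members alone. Chains annotated in whole or in part were 73.2%, 80.6% and 76.6% for naive, undivided and 2-division cells. Early ends were 2.7%, 3.26% and 6.33% without A-rich ends, and 0%, 2.2% and 2.63% without ends that are A-rich on the genome or the spliced transcript, a rule chosen after seeing the data. With the longest terminal exon of each family in place of the mean, 3 families were shorter and 0 longer in undivided than in naive cells and 0 were longer after 2 divisions. At a difference of over 200 nt, 1 was longer in undivided than in naive cells and 1 was shorter after 2 divisions than in undivided cells. Apart from the alternatives built to drop isoforms or ends, the cause was not tested. Retained introns were in 25.6%, 14.8% and 17% of isoforms when only introns that another isoform splices were counted. Depth limits every statement on a member not found.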
